A study of Mus musculus with 15 samples.

Results

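The genes described here encode the NF-κB transcription factors and proteins that restrain them. The list held 9 mouse genes: the 5 subunit genes Nfkb1, Nfkb2, Rel, Rela and Relb, the IκB family genes Nfkbia and Nfkbiz, and the signalling regulators Tnfaip3 and Tank. NF-κB subunits act as dimers, which inhibitors such as IκBα, the product of Nfkbia, hold in the cytoplasm of a resting T cell. Signals from the T cell receptor and CD28 activate the IκB kinase complex, IKK, IκBα is degraded, and the freed dimers enter the nucleus and bind κB sites. Nfkbia and Tnfaip3 are themselves classical NF-κB target genes, so the pathway induces its own brakes.

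Accessibility was measured by ATAC-seq, which reads out where a transposase can reach the DNA. Mouse CD4+ T cells with the genotype IRF5+/+ (wild type) or IRF5-/- (knockout of Irf5, an interferon regulatory factor gene) were profiled untreated, written as 0 h, or after 72 h of activation in culture. Untreated cells gave 4 IRF5+/+ and 3 IRF5-/- libraries (the latter numbered 1, 3 and 4) and activated cells 4 and 4, for a total of 15. The labels call the replicates biological and do not name the animals, strain, age, sex or activating agent, and all p-values refer to the spread among libraries only, which may be partly technical. Peaks of the 15 libraries were merged, and 83743 regions with a peak in at least 2 libraries were kept. Of these, 119 had a listed gene as the nearest protein-coding gene within 100 kb: 34 for Nfkb1, 24 for Tank, 19 for Tnfaip3, 17 for Nfkbiz, 10 for Nfkbia, 8 for Rel, 3 for Rela, and 2 each for Nfkb2 and Relb. Nearness does not show that a region acts on the gene. Regions are numbered along the chromosome within each gene, in mm10 coordinates, and the gene table gives no exons, so a position inside a gene is given as gene body.

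Depth was 20531236 to 29000534 fragments after filtering, and the lists held 39807 to 47790 peaks for IRF5+/+ at 0 h, 59243 to 69086 for IRF5+/+ at 72 h, 29994 to 45589 for IRF5-/- at 0 h and 55519 to 61478 for IRF5-/- at 72 h. IRF5-/- library 3 at 0 h stood apart: it had the fewest peaks, and its median peak height over the regions called in all libraries (the highest pileup of a region, scaled to 1000000 fragments) was 1.80, against 3.85 to 5.07 in the other 6 libraries at 0 h. At 72 h this median was 2.29 to 2.90 in IRF5+/+ and 2.14 to 2.35 in IRF5-/- libraries. Irf5 itself had 5 regions, of which 1 had a peak in all 15 libraries, and none differed between genotypes (lowest exact p = 0.429). The deleted part of Irf5 is not named in the labels, so these peaks do not check the genotype. All 8 T cell marker genes searched had regions, 101 in all, of which 51 to 78 were called per library at 0 h and 56 to 71 at 72 h. By the activation tests described later, 10 of the 101 were gained and 16 lost (9.90% and 15.8%), against 18.4% and 4.65% of all regions. Of the 23 with a peak in all libraries, 18 fell and 2 rose in relative height, with a median log2 change of −0.56. Over all such regions, 39.1% fell and 34.4% rose. The B cell genes Cd79a, Cd79b and Ms4a1 had none, while the 25 regions of the B cell markers Pax5, Ebf1, Cd22 and Blk were called 8 to 10 per library in IRF5+/+ cells at 0 h and 18 to 20 at 72 h, and 3 to 9 and then 12 to 18 in IRF5-/- cells. The 50 myeloid marker regions were called 18 to 37 per library at 0 h and 25 to 32 at 72 h, and the 47 CD8 T and NK cell marker regions 14 to 31 and 24 to 28. The part of such markers in the results was not tested. In bulk chromatin, a change in the share of a cell type and a change within each cell cannot be told apart.

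The κB motif is the sequence that NF-κB dimers bind, and it stood next to the starts of several of these genes. Promoter entries from RefSeq (GRCm38.p6, the assembly behind mm10) matched 6 of the 9 genes, with 12 start windows between them; there was no entry for Nfkb1, Relb or Nfkbiz. The motif was searched as GGG, any 2 bases, and then TTTCC or TTCCC, on both strands in the 250 bases before each start. It occurred in 7 of the 12 windows and in 5 of the 6 genes, against 2.82% of the 32851 windows of all genes. A match is a description of the letters and no evidence of binding. The windows below are shown because they lie inside the start regions whose heights are given later. Each is printed 5′ to 3′ on the strand of the gene and ends at the base before the start, with κB matches on either strand in capitals and overlapping matches joined.
Nfkb2: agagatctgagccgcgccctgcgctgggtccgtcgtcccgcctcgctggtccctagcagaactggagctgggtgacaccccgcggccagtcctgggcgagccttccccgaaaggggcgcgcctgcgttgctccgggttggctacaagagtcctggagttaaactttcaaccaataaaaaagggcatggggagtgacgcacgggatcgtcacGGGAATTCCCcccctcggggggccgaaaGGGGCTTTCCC
Rel: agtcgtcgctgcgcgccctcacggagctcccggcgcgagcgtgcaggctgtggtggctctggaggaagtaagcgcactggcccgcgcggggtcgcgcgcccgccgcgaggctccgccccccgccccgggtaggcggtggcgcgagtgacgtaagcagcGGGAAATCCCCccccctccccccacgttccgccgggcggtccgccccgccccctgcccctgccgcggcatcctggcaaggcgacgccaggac
Nfkbia: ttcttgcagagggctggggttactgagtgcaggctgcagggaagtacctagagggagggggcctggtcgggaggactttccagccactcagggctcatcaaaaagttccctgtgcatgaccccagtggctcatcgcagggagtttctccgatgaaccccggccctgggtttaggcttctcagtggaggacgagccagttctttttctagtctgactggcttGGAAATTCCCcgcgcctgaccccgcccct
Tnfaip3: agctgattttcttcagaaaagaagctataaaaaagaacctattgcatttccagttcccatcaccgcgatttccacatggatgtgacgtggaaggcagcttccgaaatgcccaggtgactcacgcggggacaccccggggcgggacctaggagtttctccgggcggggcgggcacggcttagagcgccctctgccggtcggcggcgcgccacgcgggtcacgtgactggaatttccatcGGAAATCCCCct
Tank: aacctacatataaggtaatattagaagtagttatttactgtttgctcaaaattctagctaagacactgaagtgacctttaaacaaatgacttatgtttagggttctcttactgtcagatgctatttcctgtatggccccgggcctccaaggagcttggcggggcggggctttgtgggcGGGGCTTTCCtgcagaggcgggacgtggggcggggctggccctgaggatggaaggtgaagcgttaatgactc
Rela: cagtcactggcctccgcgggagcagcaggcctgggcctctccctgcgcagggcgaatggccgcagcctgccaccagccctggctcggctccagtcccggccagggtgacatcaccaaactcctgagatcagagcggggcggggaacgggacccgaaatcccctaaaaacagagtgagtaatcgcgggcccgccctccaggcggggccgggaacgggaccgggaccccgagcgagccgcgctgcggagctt
In the Nfkb2 window (chr19:46304487-46304736, plus strand) the word GGGAATTCCC lay 39 to 30 bases before the start, and overlapping matches filled bases 11 to 1 before it. The Nfkbia window (chr12:55492648-55492897, minus strand) held a match 29 to 20 bases before the start, and the Tnfaip3 window (chr10:19015411-19015660, minus strand) held one 12 to 3 bases before it. In the Rel window (chr11:23770970-23771219, minus strand) 2 overlapping matches lay between 92 and 82 bases before the start. The Tank window shown is that of the third start (chr2:61592847-61593096, plus strand), with a match 72 to 63 bases before it, and the windows at its first and second starts held none. Rela (chr19:5637291-5637540, plus strand) is shown as the gene whose window held no match.

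The member regions were already widely accessible in untreated cells. A peak was called at 73, 77, 79 and 81 of the 119 regions in the IRF5+/+ libraries at 0 h and at 73, 52 and 75 in the IRF5-/- libraries at 0 h, the 52 coming from library 3. At 72 h the counts were 93, 86, 91 and 84 in IRF5+/+ and 78, 79, 78 and 81 in IRF5-/- cells. As a mean share of the 119 regions this was 65.1% in IRF5+/+ at 0 h, 74.4% in IRF5+/+ at 72 h, 56.0% in IRF5-/- at 0 h and 66.4% in IRF5-/- at 72 h. The same shares over all 83743 regions were 51.8%, 71.9%, 43.8% and 64.8%. A peak in all 15 libraries was found at 43 member regions (36.1%), against 25.3% of all regions. Every gene had at least 1 such region, and 48 of the 119 lay in a gene body and 71 outside.

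**Figure D1:**
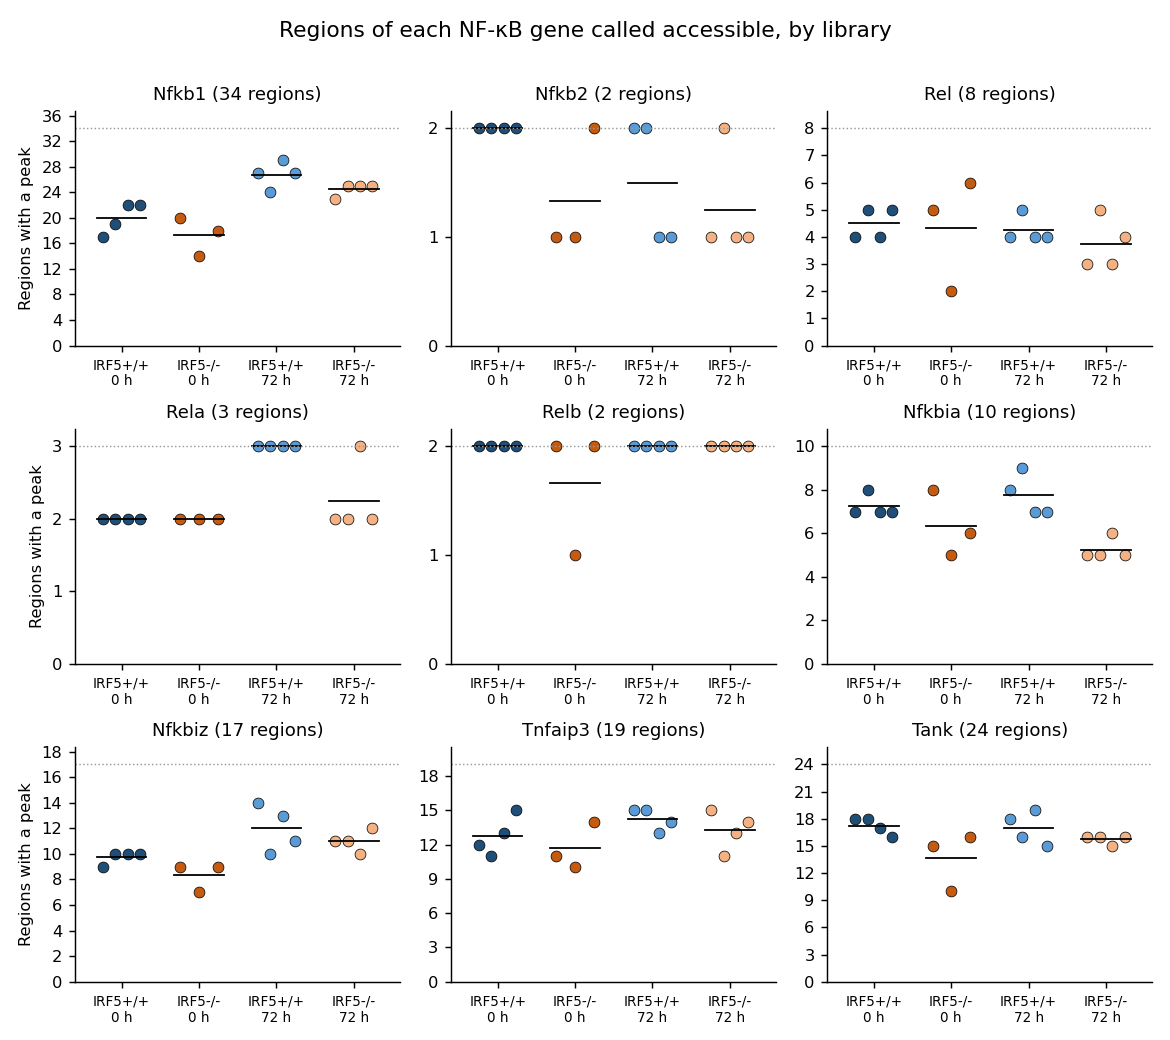
Regions with a called peak (vertical axis, number) in each library for each of the 9 genes, by genotype and time; points are libraries, bars are group means and the dotted line is the number of regions of the gene. Nfkb1 went from 17 to 22 called regions in IRF5+/+ cells at 0 h to 24 to 29 at 72 h, while Tank stayed between 15 and 19 in IRF5+/+ cells at both times.

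With activation, new peaks appeared at 4 of the 9 genes, and Nfkb1, which encodes the p105 precursor of the p50 subunit, held the most. By the exact test on peak presence, stratified by genotype and adjusted over all regions, 17 member regions were gained at 72 h and 5 were lost. Gains made up 14.3% of the member regions against 18.4% of all regions, and losses 4.20% against 4.65%, so both shares were near or under the background. Nfkb1 had 9 gains and 3 losses, Nfkbiz 3 gains, Tank 3 gains and 1 loss, Tnfaip3 2 gains and Rel 1 loss. No region of Nfkb2, Rela, Relb or Nfkbia passed the test in either direction. Peaks in all 8 libraries at 72 h and none of the 7 at 0 h were seen at 11 member regions (8.86% of all regions), and the opposite at 2 (1.37% of all regions). The 72 h lists are longer, and with the strongest 29994 peaks of every library the member counts turned to 8 gained and 14 lost, and those over all regions from 15380 gained and 3895 lost to 6636 and 6349. The absence of a peak does not show closed chromatin, only that no peak passed the threshold at this depth. No gain or loss lay within 1 kb of a gene boundary, and all 17 gained regions were in the authors' final list for IRF5+/+ at 72 h, 14 in that for IRF5-/- at 72 h and 0 in either list for 0 h. Those lists belong to the same samples, so they are no independent check.

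At Nfkb1, 7 of the 9 gained regions lay outside the gene, between 6513 and 58386 bp beyond its higher-coordinate boundary, where its start region is found. Region 31 (chr3:135722229-135722533, 30260 bp from the gene) had no peak at 0 h. At 72 h its heights were 2.19, 2.76, 2.95 and 1.94 in IRF5+/+ cells and 1.42, 1.53, 1.71 and 1.82 in IRF5-/- cells (exact test, adjusted p = 0.00399, 8 of 8 libraries against 0 of 7). All 4 IRF5+/+ values were thus above the IRF5-/- values, though the presence test does not compare them. The median height over the regions called in all libraries also tended to be higher in IRF5+/+ libraries at 72 h, at 2.29 to 2.90 against 2.14 to 2.35. A genotype difference in the height of region 31 was not tested. Region 34, 58386 bp from the gene and the farthest member region of Nfkb1, likewise had peaks only at 72 h, with heights of 1.52 to 2.03 in IRF5+/+ and 0.646 to 1.15 in IRF5-/- cells (exact test, adjusted p = 0.00399).

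Inside Nfkb1, gained and lost regions were neighbours. In a stretch of the gene body, region 6 (chr3:135602216-135603396) was called in all 7 libraries at 0 h, with heights of 2.19, 3.21, 2.71 and 2.89 in IRF5+/+ and 1.84, 0.956 and 2.0 in IRF5-/- cells, and in none of the 8 at 72 h (exact test, adjusted p = 0.00399). Region 7, which begins 722 bp further on, was called in 1 of 4 and 1 of 3 libraries at 0 h and in all 8 at 72 h. Its heights at 72 h were 4.42, 4.57, 4.36 and 2.88 in IRF5+/+ and 2.54, 2.62, 3.37 and 2.95 in IRF5-/- cells, against 1.78 and 1.41 where it was called at 0 h (exact test, adjusted p = 0.0443). Region 8 lay 1783 bp beyond region 7 and was open in all 15 libraries. Region 9, only 45 bp from region 8, was called in all 7 libraries at 0 h and in 2 of 8 at 72 h (exact test, adjusted p = 0.0443). Leaving out each library in turn, the calls of regions 7 and 9 were lost in 13 of 15 settings (adjusted p 0.0611 to 0.113). A second pair showed the same arrangement: region 19 was called in 7 of 7 libraries at 0 h and 0 of 8 at 72 h, and region 20, 124 bp away, in 0 of 7 and 8 of 8 (exact test, adjusted p = 0.00399 for each). With peaks required to cover 0.5 of a region, the losses of regions 6 and 19 were no longer called (exact test, adjusted p = 0.334 and 0.111).

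Among the other genes, Nfkbiz, which encodes the nuclear IκBζ, gained a region in its gene body 2519 bp from a boundary, region 16 (chr16:55835648-55836435). It had no peak at 0 h, and its heights at 72 h were 3.12, 2.90, 3.33 and 2.41 in IRF5+/+ and 1.69, 2.34, 2.69 and 1.82 in IRF5-/- cells (exact test, adjusted p = 0.00399). This call was lost when peaks had to cover 0.5 of the region (exact test, adjusted p = 0.644). Regions 1 and 2 of Nfkbiz, 87700 and 82381 bp from the gene, were also called in 8 of 8 libraries at 72 h and 0 of 7 at 0 h, with heights of 0.515 to 1.30. These distant peaks were low, and that of region 1 was no longer called when only peaks with a −log10 q of at least 5 were used (exact test, adjusted p = 0.238) or when peaks had to cover 0.5 of the region (exact test, adjusted p = 0.218).

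At Tank, whose product binds TRAF proteins and the kinases TBK1 and IKKε, region 17 in the gene body was called at 72 h only, with heights of 1.34, 1.89, 1.84 and 1.24 in IRF5+/+ and 1.02, 0.646, 1.11 and 0.982 in IRF5-/- cells (exact test, adjusted p = 0.00399). Region 10, 16088 bp from the gene, followed the same pattern at 0.565 to 1.23. Region 4, 85956 bp away, went the other way: it was called in 6 of 7 libraries at 0 h, at 2.28 to 3.21, and in 0 of 8 at 72 h (exact test, adjusted p = 0.0121), and the library without it at 0 h was IRF5-/- library 3. Region 1 of Tank, 97467 bp away, was gained in 6 of 8 libraries (exact test, adjusted p = 0.0443), a call also lost in 13 of the 15 settings and with peaks required to cover 0.5 of the region (exact test, adjusted p = 0.111).

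Tnfaip3, which encodes the ubiquitin-editing NF-κB inhibitor A20, gained region 16 in 8 of 8 libraries, 66621 bp from the gene (exact test, adjusted p = 0.00399). Region 11, 12955 bp from the gene, was gained in 4 of 4 IRF5+/+ and 2 of 4 IRF5-/- libraries (exact test, adjusted p = 0.0308), and this call was lost without IRF5-/- library 1 or 4 at 72 h (adjusted p up to 0.0706). It was also lost with a −log10 q of at least 5 and with equal numbers of peaks (exact test, adjusted p = 0.200 and 0.775). The lost region of Rel, the gene of the c-Rel subunit, lay 11025 bp outside it. Region 5 was called at 1.65, 1.41, 1.98 and 1.58 in IRF5+/+ cells at 0 h and at 1.66 and 1.51 in 2 of 3 IRF5-/- libraries, and in none at 72 h (exact test, adjusted p = 0.0121). The same coverage requirement ended this call (exact test, adjusted p = 0.0548).

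**Figure D2:**
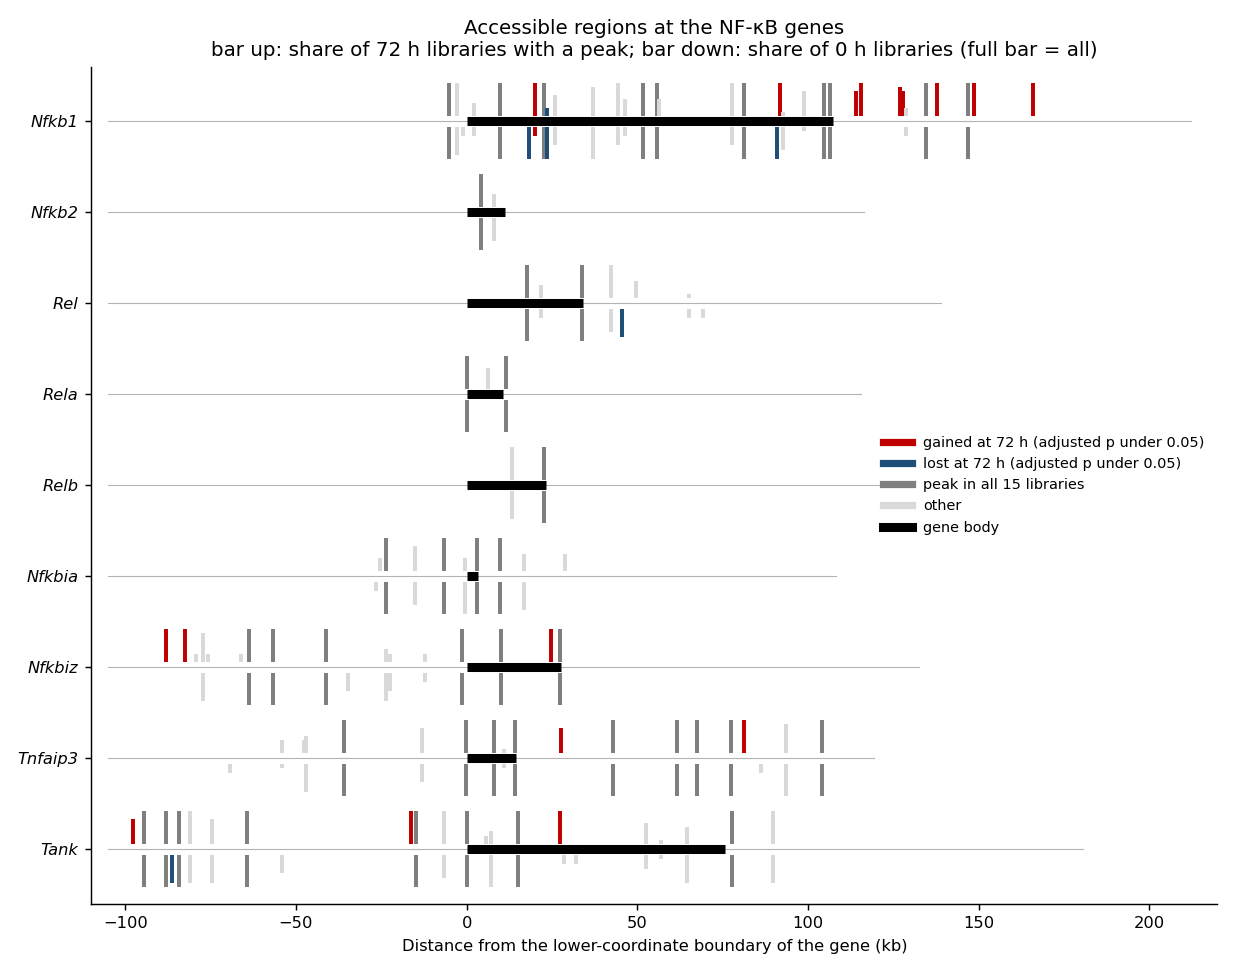
The 119 regions of the 9 genes by distance in kb from the lower-coordinate boundary of each gene; upward bars give the share of 72 h libraries with a peak and downward bars the share of 0 h libraries, and a full bar is all libraries. Red marks the 17 gained and blue the 5 lost regions, and 9 of the gained regions are at Nfkb1.

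Peak height could be compared at the 43 member regions with a peak in every library. It was scaled to depth as above and tested with limma on the log2 scale. Heights fell across the genome at 72 h, with a median log2 change of −0.66 over the 21176 such regions, so each change is also given relative to the median region of its own library, here called the relative height, for which the median over all regions was −0.04. In depth-scaled height, 10 member regions rose and 23 fell, against 8.89% and 65.4% of all regions. In relative height 20 rose and 16 fell, against 34.4% and 39.1% of all regions. The median change of the member regions was −0.67 in depth-scaled and −0.05 in relative height, close to the medians of all regions. Without IRF5-/- library 3 at 0 h, 9 rose and 27 fell in depth-scaled height, of 46 regions, against 12.4% and 71.5% of all regions, and 21 and 18 in relative height, against 34.9% and 40.9%. With the fold enrichment of MACS2, a ratio to the local background, in place of pileup, 14 rose and 13 fell, against 8.62% and 51.3% of all regions.

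The start regions fell in peak height. A start region is the one that overlaps a RefSeq promoter window or, for Nfkb1, Relb and Nfkbiz, the gene boundary with the higher peak. Of the 10 start regions with a peak in all libraries, 10 fell in depth-scaled and 9 in relative height, with a median relative log2 change of −0.47. Over the 8660 regions at the starts of all genes, 76.3% fell in depth-scaled and 44.8% in relative height, and the median relative change was −0.12. On fold enrichment, 6 of the 10 fell and 1 rose. The other 33 member regions behaved differently from the starts: 20 rose and 7 fell in relative height, against 40.5% and 35.1% of the 12516 other regions of all genes. The difference between the member regions and those of all genes was not tested.

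Relb, a subunit of the non-canonical pathway, had the tallest start region (region 2, chr7:19628251-19629636). Its heights were 16.1, 15.6, 21.1 and 19.6 in IRF5+/+ and 14.7, 7.88 and 18.9 in IRF5-/- cells at 0 h, and 7.09, 8.49, 7.04 and 6.53 in IRF5+/+ and 6.5, 7.55, 5.98 and 6.74 in IRF5-/- cells at 72 h. All 0 h libraries but IRF5-/- library 3 were above all 72 h libraries. The log2 change was −1.13 ± 0.19 (SE; limma, adjusted p = 7.53e-09), and −0.51 ± 0.06 in relative height (limma, adjusted p = 8.09e-11).

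At Nfkb1 the start region 24 (chr3:135690577-135691944) was 7.94, 8.86, 11.9 and 13.0 in IRF5+/+ and 8.08, 3.86 and 10.2 in IRF5-/- cells at 0 h. At 72 h it was 4.58, 4.03, 4.52 and 3.15 in IRF5+/+ and 3.87, 4.88, 3.97 and 3.56 in IRF5-/- cells. The relative height fell by 0.43 on the log2 scale (SE 0.07; limma, adjusted p = 8.65e-07). Rela, which encodes the p65 subunit, had a lower start region that fell further. Region 1 (chr19:5636751-5638108) averaged 7.36 ± 1.46 (SD, n = 4) in IRF5+/+ and 5.23 ± 2.19 (SD, n = 3) in IRF5-/- cells at 0 h and 2.56 ± 0.420 and 1.73 ± 0.196 (SD, n = 4 each) at 72 h, a relative log2 change of −0.89 ± 0.09 (SE; limma, adjusted p = 1.88e-12). The start of Rel, region 3, fell by 0.38 in relative log2 height (SE 0.07; limma, adjusted p = 7.17e-06), but its change on fold enrichment, −0.17, did not pass the test (limma, adjusted p = 0.136).

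Nfkb2, the gene of the p100 precursor, was the exception among the starts in relative height when all libraries were used. Region 1 (chr19:46304200-46306113), which holds the window with the 2 stretches of κB matches, was 7.59, 8.62, 10.5 and 11.6 in IRF5+/+ and 8.05, 4.09 and 10.7 in IRF5-/- cells at 0 h. At 72 h it was 5.39, 6.46, 6.55 and 5.13 in IRF5+/+ and 3.74, 4.56, 4.82 and 4.96 in IRF5-/- cells. In depth-scaled height it fell by 0.67 on the log2 scale (SE 0.19; limma, adjusted p = 8.12e-04), while its relative change was −0.05 ± 0.06 (SE; limma, adjusted p = 0.475), and with quantile normalization it was 0.14 (limma, adjusted p = 0.0442). Without IRF5-/- library 3 at 0 h the relative change was −0.17 ± 0.07 and was called (SE; limma, adjusted p = 0.0313).

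The inhibitor genes differed in the size of the fall at their starts. Nfkbia region 7 (chr12:55491672-55492995) was 11.3, 10.6, 15.2 and 14.7 in IRF5+/+ and 11, 5.66 and 13.1 in IRF5-/- cells at 0 h, and 6.53, 5.70, 6.47 and 4.90 in IRF5+/+ and 5.56, 5.37, 5.42 and 5.38 in IRF5-/- cells at 72 h. Its relative log2 change was −0.33 ± 0.06 (SE; limma, adjusted p = 5.72e-06), but its fold enrichment over the local background moved by 0.22 in the opposite direction (limma, adjusted p = 0.0474). Nfkbiz region 17 had a smaller relative change, −0.19 ± 0.09 (SE; limma, adjusted p = 0.0482), a call lost when any of 9 libraries was left out (adjusted p 0.0648 to 0.136).

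Tnfaip3 had the largest fall in height of the 10 start regions, though on fold enrichment its change, −0.36, was smaller than those of Nfkb1 region 24 (−0.61), Rela region 1 (−0.55) and Nfkbiz region 17 (−0.50). Region 10 (chr10:19014432-19015866) was 11.5, 11.8, 14.6 and 15 in IRF5+/+ and 9.88, 5.01 and 12.3 in IRF5-/- cells at 0 h. At 72 h it was 3.0, 3.99, 3.83 and 3.23 in IRF5+/+ and 3.12, 3.15, 3.29 and 2.85 in IRF5-/- cells, so that the times did not overlap even with library 3. The relative log2 change was −1.06 ± 0.07 (SE; limma, adjusted p = 1.12e-19), and 4.66% of all regions had one as low or lower. The 2 start regions of Tank, 13 and 16, fell by 0.73 and 0.54 in relative log2 height (SE 0.09 and 0.06; limma, adjusted p = 2.1e-09 and 1.65e-11), and on fold enrichment the change of region 13 did not pass the test (−0.21; limma, adjusted p = 0.0849). A further start region of Tnfaip3, region 9, had a peak in 2 libraries only.

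**Figure D3:**
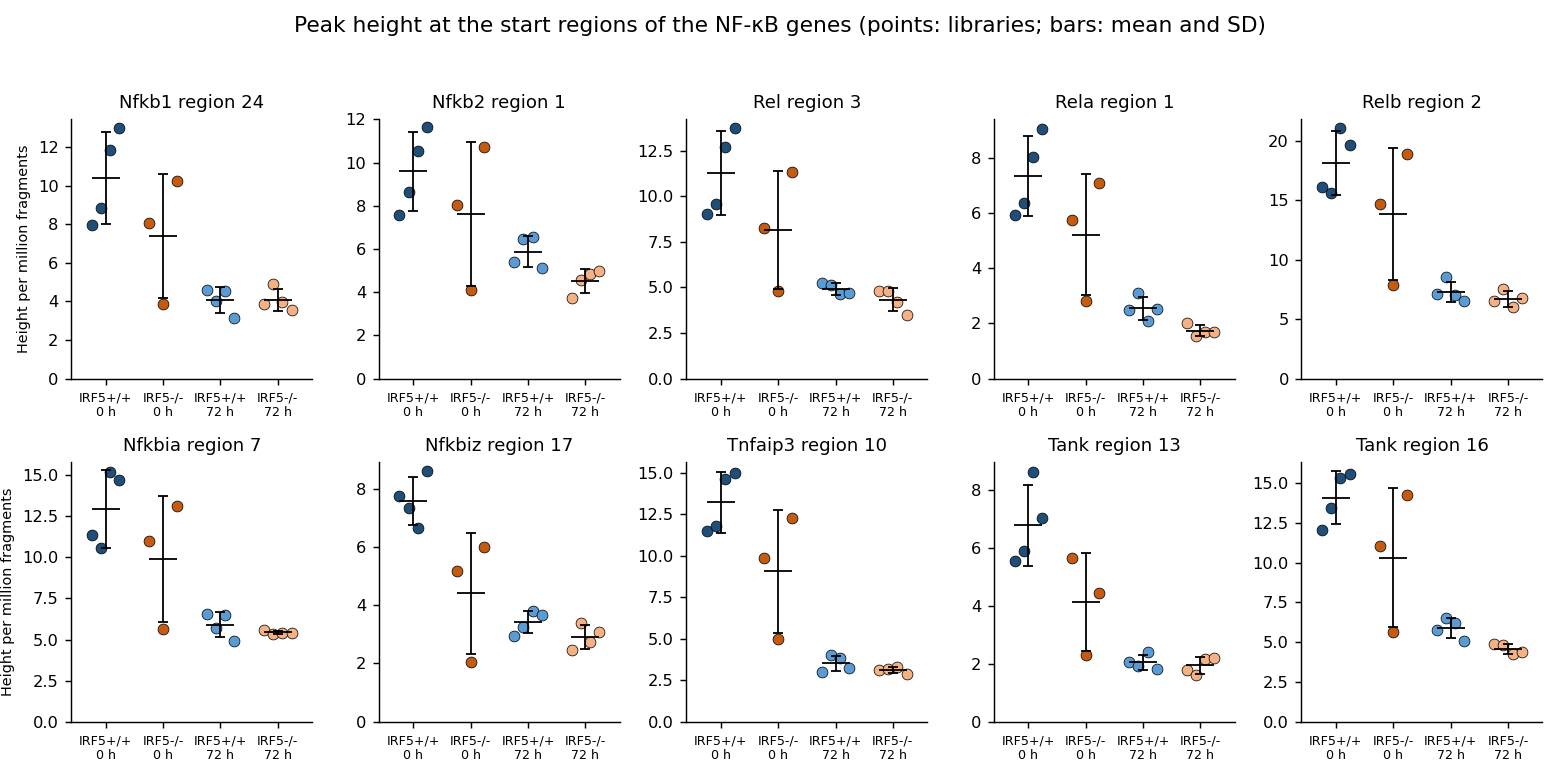
Depth-scaled peak height (vertical axis) at the 10 start regions in each library, by genotype and time; points are libraries and bars the mean and SD. At every start region the 4 IRF5+/+ libraries at 0 h lay above all 8 libraries at 72 h, and the low IRF5-/- point at 0 h is library 3.

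Away from its start, Nfkb1 rose in relative height at most of the regions it already had open. Of its 9 other regions with a peak in all libraries, 8 rose in relative height, 6 of them by 1.03 to 1.36 on the log2 scale (regions 1, 5, 8, 14, 18 and 23), and 5 of these rose in depth-scaled height as well. Taken by genotype, the depth-scaled changes of these 5 were 0.15 to 0.49 in IRF5+/+ cells, where none passed the test (limma, adjusted p 0.102 to 0.616), and 0.78 to 0.98 in IRF5-/- cells, where all passed (limma, adjusted p 0.00401 to 0.0215); no difference between the genotypes passed the interaction test given further on. Region 5 lost its depth-scaled call without IRF5-/- library 3 at 0 h (limma, adjusted p = 0.0790). Region 8 (chr3:135606902-135607810, gene body) was 2.32, 2.79, 3.03 and 4.04 in IRF5+/+ and 2.44, 0.842 and 2.78 in IRF5-/- cells at 0 h, and 4.18, 4.54, 4.10 and 3.50 in IRF5+/+ and 3.25, 3.03, 3.46 and 3.46 in IRF5-/- cells at 72 h. Heights at the 2 times overlapped. The log2 change was 0.66 ± 0.20 in depth-scaled height (SE; limma, adjusted p = 0.00165) and 1.29 ± 0.09 in relative height (limma, adjusted p = 1.37e-17), and without IRF5-/- library 3 at 0 h it was 0.39 and 1.10. On fold enrichment, the 6 regions changed by 0.12 to 0.99. The remaining 2, regions 15 and 30, rose by 0.70 and 0.55 in relative height but changed by −0.25 and −0.55 in fold enrichment.

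The exception at Nfkb1 was region 32 (chr3:135731306-135731941), 39337 bp beyond the start side of the gene. It was 6.02, 7.10, 9.83 and 8.79 in IRF5+/+ and 7.10, 3.44 and 7.89 in IRF5-/- cells at 0 h and 2.27 to 3.03 at 72 h in the 8 libraries. Every 0 h library was above every 72 h library. The relative log2 change was −0.73 ± 0.08 (SE; limma, adjusted p = 5.33e-12). Region 31, gained at 72 h, lies 8772 bp from it and region 33, also gained, 1107 bp.

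Tnfaip3 showed the reverse. Its regions 7, 12, 13, 15 and 19 fell by 1.51 to 2.1 in relative log2 height, which placed each among the lowest 1.67% of the 21176 regions. Region 13 (chr10:19061860-19063133, 46450 bp from the gene), singled out here after its values were seen because it had the tallest peak of all member regions, was 24.2, 23.6, 28.3 and 32.6 in IRF5+/+ and 22.9, 12.1 and 28.2 in IRF5-/- cells at 0 h. At 72 h it was 4.50, 4.97, 5.28 and 4.39 in IRF5+/+ and 3.25, 4.48, 4.06 and 3.37 in IRF5-/- cells. Even the lowest value at 0 h, from library 3, was above every value at 72 h. The log2 change was −2.45 ± 0.19 in depth-scaled height (SE; limma, adjusted p = 8.45e-37) and −1.83 ± 0.06 in relative height (limma, adjusted p = 2.87e-30).

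Region 15 (chr10:19077890-19078601), 62480 bp from Tnfaip3, fell from 5.13, 5.03, 6.84 and 6.77 to 0.811, 0.98, 0.842 and 0.778 in IRF5+/+ cells. In IRF5-/- cells it was 5.30, 2.41 and 6.23 at 0 h and 0.712, 0.888, 0.683 and 0.982 at 72 h. Its relative log2 change was −1.98 ± 0.11 (SE; limma, adjusted p = 1.04e-21), and on fold enrichment it was −1.56 ± 0.10. Region 7 (chr10:18999014-19002633) spans the boundary of the gene opposite its start. It went from 4.73, 4.21, 6.07 and 6.41 to 0.608, 0.617, 0.766 and 0.622 in IRF5+/+ cells, and from 3.74, 1.99 and 5.80 to 0.712, 0.525, 0.896 and 0.561 in IRF5-/- cells (relative log2 change −2.1 ± 0.13, SE; limma, adjusted p = 3.33e-20).

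The measure mattered for these falls. On fold enrichment, the change was 0.03 at region 7 (limma, adjusted p = 0.812) and −0.09 ± 0.07 (SE) at region 13, the tallest. It was −0.89 at region 12, −0.52 at region 19 and −0.36 at the start, where relative heights had fallen by 1.51, 1.68 and 1.06. Over all regions the median change in fold enrichment was −0.24. The other gene body region of Tnfaip3 called in all libraries, region 8, and region 14, 52617 bp away, moved in the other direction, by 0.48 ± 0.11 and 1.0 ± 0.12 (SE) in relative log2 height (limma, adjusted p = 2.42e-04 and 6.33e-10), and by 1.07 and 1.03 on fold enrichment.

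Distal regions of other genes rose as well. Nfkbiz region 7 (chr16:55746955-55748033, 63342 bp from the gene) was 0.892, 1.45, 1.17 and 1.39 in IRF5+/+ and 0.777, 0.459 and 0.974 in IRF5-/- cells at 0 h, and 1.74, 1.45, 2.26 and 1.63 in IRF5+/+ and 1.42, 1.90, 1.75 and 1.36 in IRF5-/- cells at 72 h. The ranges of the 2 times overlapped. Its change was 0.86 ± 0.20 in depth-scaled and 1.48 ± 0.13 in relative height (SE; limma, adjusted p = 4.91e-05 and 3.97e-14), the largest rise among the member regions. Region 9 of Nfkbiz rose by 1.42 and Tank region 2, 94115 bp from Tank, by 1.26 in relative log2 height (limma, adjusted p = 5.04e-14 and 6.07e-15), but Tank region 2 was not called on fold enrichment (0.18; limma, adjusted p = 0.274).

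Nfkbia region 5, 6136 bp from its gene, and Rel region 1, in the gene body, rose by 1.09 and 1.11 in relative log2 height (limma, adjusted p = 1.11e-09 and 3.28e-08). The rise of Rel region 1 in depth-scaled height, 0.49 ± 0.20 (SE; limma, adjusted p = 0.0178), was lost without IRF5-/- library 1 at 0 h (adjusted p = 0.0861). Against these, Tank region 8, 63528 bp from the gene, fell by 0.70 in relative log2 height (SE 0.08; limma, adjusted p = 1.31e-10), from 6.38 to 10.2 in IRF5+/+ cells at 0 h to 2.26 to 3.48 at 72 h. Rela region 3 and Nfkbia region 8 fell in depth-scaled log2 height by 0.76 and 0.74 (limma, adjusted p = 3.09e-04 and 4.75e-04), but their relative changes were −0.14 and −0.11 and did not pass the test (limma, adjusted p = 0.200 and 0.291).

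**Figure D4:**
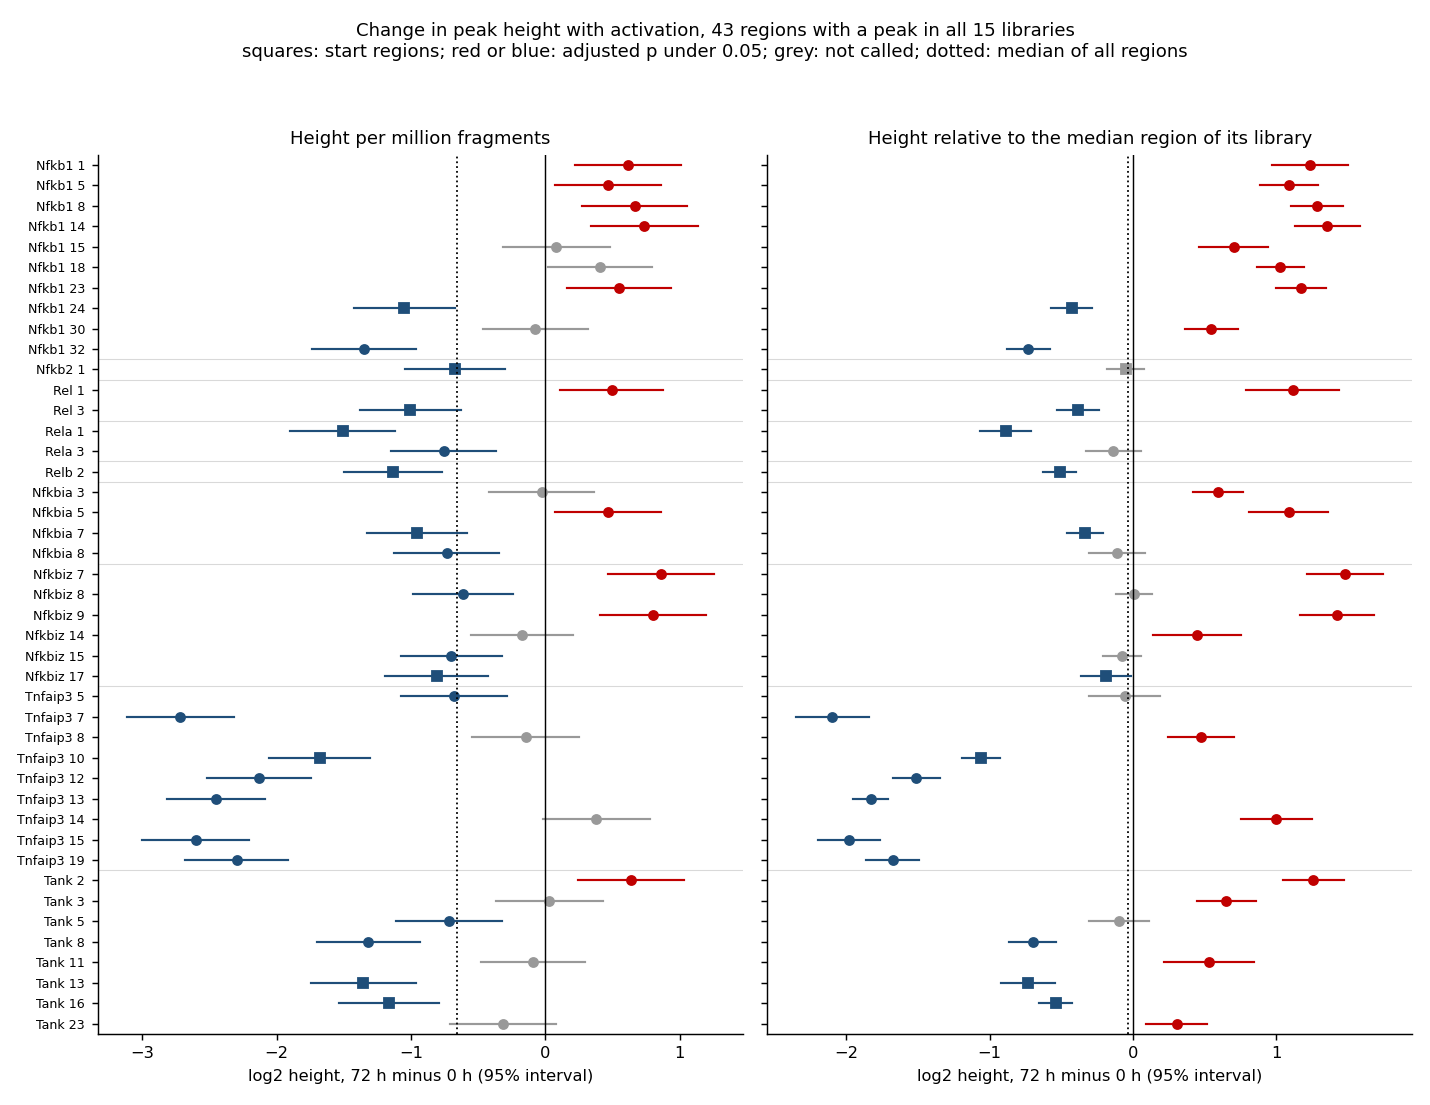
Log2 change in peak height from 0 h to 72 h, with 95% interval, at the 43 member regions with a peak in all 15 libraries, scaled to depth (left) and relative to the library median (right); squares are start regions and colours mark an adjusted p under 0.05. The Nfkb1 regions other than 24 and 32 lie right of zero in relative height, and Tnfaip3 regions 7, 10, 12, 13, 15 and 19 lie farthest left.

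The comparison of IRF5-/- with IRF5+/+ cells found little at these genes. By peak presence, stratified by time, 0 of 119 member regions and 0.0% of all regions passed the adjusted exact test, and 2 member regions had an unadjusted p under 0.05, as did 1.39% of all regions. Both are at Nfkbia. Region 9 (chr12:55505880-55506530, 13233 bp from the gene) was called in all 8 IRF5+/+ libraries, at 0.803, 1.24, 1.42 and 1.43 at 0 h and 0.770, 0.689, 0.919 and 0.467 at 72 h. In IRF5-/- cells it was called in 2 of 3 libraries at 0 h, at 1.02 and 1.27, and in 0 of 4 at 72 h (exact test, unadjusted p = 0.00612, adjusted p = 1). Region 4, at 14802 bp, was called in 8 of 8 IRF5+/+ and 3 of 7 IRF5-/- libraries (exact test, unadjusted p = 0.0306). The 0 h library without a peak at region 9 was IRF5-/- library 3. With equal numbers of peaks, 0 of 72 member regions had an unadjusted p under 0.05 (exact test). With peaks required to cover 0.5 of a region, 6 of 113 did.

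By peak height, 0 of 43 member regions differed between the genotypes in depth-scaled height, against 0.00472% of all regions higher and 0.151% lower in IRF5-/- cells (limma). The count moved with the IRF5-/- libraries at 0 h: 14 regions were lower in IRF5-/- cells without library 1, 36 without library 4 and 0 without library 3. Over all regions, 24.6% were called without library 1, 79.0% without library 4 and 1.86% without library 3, in either direction. An unadjusted p under 0.05 was found at 25 of the 43 regions, against 44.2% of all regions. In relative height these settings gave 1, 0 and 0 regions, and with all libraries 3 of the 43 had an unadjusted p under 0.05, against 13.4% of all regions. The 1 region called in relative height with all libraries was Tnfaip3 region 19 (chr10:19104467-19105540, 89057 bp from the gene), against 0.973% of all regions higher and 0.085% lower.

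At this region the heights in IRF5+/+ cells were 10.1, 10.4, 14 and 13.9 at 0 h and 2.59, 1.74, 2.37 and 1.52 at 72 h, and those in IRF5-/- cells were 10.3, 5.97 and 14.1 at 0 h and 1.69, 2.50, 2.39 and 2.99 at 72 h. The genotypes overlapped at each time. The relative height was 0.34 higher in IRF5-/- cells on the log2 scale (95% interval 0.16 to 0.52; limma, adjusted p = 0.0499), and at 72 h it was 0.46 higher (0.21 to 0.71; limma, adjusted p = 0.0470), where 0.94% of all regions were higher and 0.264% lower. In depth-scaled height the difference was −0.05 (limma, adjusted p = 0.796), the opposite sign. The value is just past the threshold, and with each library left out in turn it was called in 4 of the 15 settings.

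The response to activation itself was compared between genotypes by the interaction term, the change in IRF5-/- minus that in IRF5+/+ cells. No member region passed the test in depth-scaled or in relative height, against 0.0% of all regions in each direction in the former, and 0.0% higher and 0.00472% lower in relative height (limma). An unadjusted p under 0.05 was found at 2 of the 43 regions in depth-scaled and 5 in relative height, against 2.14% and 8.76% of all regions. The largest interaction in relative height was at Nfkb1 region 15, 0.71 (95% interval 0.23 to 1.2; limma, adjusted p = 0.372), whose rise was larger in IRF5-/- cells. Of the other 4 regions with an unadjusted p under 0.05 in relative height, 3 are starts: Nfkbiz region 17 (0.37, interval 0.02 to 0.72), Tank region 13 (0.39, 0.01 to 0.77) and Nfkb2 region 1 (−0.27, −0.53 to −0.01), with limma adjusted p of 0.534, 0.554 and 0.554. The last is Nfkbiz region 15 (0.36, 0.09 to 0.62; limma, adjusted p = 0.409). The interval was −0.11 to 0.41 at the start of Tnfaip3, −0.02 to 0.56 at that of Nfkb1, −0.21 to 0.28 at that of Nfkbia and −0.20 to 0.27 at that of Relb. Across the 43 regions the changes in the 2 genotypes, which share no library, had a Pearson r of 0.97 and a Spearman rho of 0.97, given as a description because regions of a library are not independent.

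**Figure D5:**
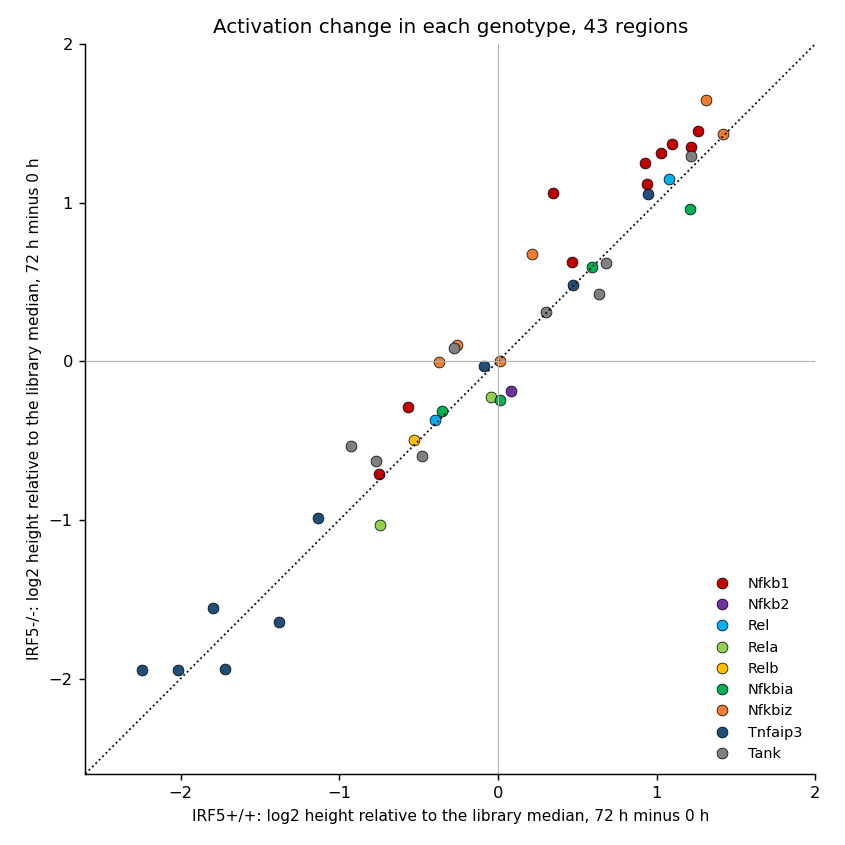
Change in relative log2 height from 0 h to 72 h in IRF5+/+ (horizontal) and IRF5-/- cells (vertical) at the 43 member regions; each point is a region, coloured by gene, and the dotted line marks equal change. Tnfaip3 regions 7, 10, 12, 13, 15 and 19 lie at the lower left, its regions 8 and 14 at the upper right and region 5 near the centre, and the Nfkb1 regions other than 24 and 32 lie at the upper right, and the highest point above the line relative to its IRF5+/+ change is Nfkb1 region 15.

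The rest of the pathway was summarised from gene lists, again against 18.4% of all regions gained and 4.65% lost. No region of any list passed the genotype test on peak presence, which no region of the genome passed either. Of 14 ligands and receptors, with 75 regions, 6 regions were gained (8.0%) and 4 lost. Tnfsf14, the ligand LIGHT, gained 3 of its 5 regions, Cd40lg lost 3 of 16, and Tnfrsf9, the receptor 4-1BB, gained 1 of 10. Among 20 genes from the T cell receptor to IKK, 19 had regions, and 22 of the 171 were gained (12.9%) and 10 lost. Prkcq, the kinase PKCθ that couples the receptor to the pathway, had 8 gains and 5 losses among 46 regions, and Map3k7, the IKK-activating kinase TAK1, 4 gains among 11. Of the 6 partners of TANK, Tbkbp1 and Optn had gains, 2 of 8 and 1 of 5 regions.

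Another 16 inhibitors and regulators had 14 gains (13.6%) and 4 losses among 103 regions. N4bp1 led with 6 gains and 1 loss among 19 regions, followed by Tnip1, a partner of A20, with 2 gains and 1 loss among 10, and Tax1bp1, an adaptor of A20, with 3 gains among 9. The 16 known targets had 18 gains (11.8%) and 10 losses among 153 regions. Bcl2, an inhibitor of apoptosis, had 4 of each among 43, Il2ra, which encodes CD25, 3 gains and 2 losses among 18, and Ccnd2, cyclin D2, 4 gains among 17. The median relative log2 change of the regions called in all libraries was −0.07 for ligands and receptors, −0.30 for the steps to IKK, 0.14 for the TANK partners, −0.36 for the other inhibitors and 0.12 for the targets, against −0.04 for all regions.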

How the data were processed

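ATAC-seq peak lists of 15 libraries were used. The submitters' processing notes name Trim Galore 0.5.0, Bowtie2 2.2.9 and HOMER 4.10.4, with mm10 as the build. Peaks were called with MACS2 2.1.1.20160309 at a q value cutoff of 0.05, per the file headers. Per the file headers, IRF5+/+ library 4 came from an alignment numbered 5 at both times. Per the file headers, the deposited values include the pileup, a coverage signal taken at each summit. They also include a fold enrichment, the ratio of that deposited pileup to the local background, and a −log10 q value. The authors' final list per condition was used only to look up regions, with its selection not given in the sources used.

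Lists were merged by overlap of at least 1 bp into 111393 regions, of which the 83743 with a peak in 2 or more libraries were tested, and each was assigned to the nearest of 21883 protein-coding genes (GRCm38.p6) within 100 kb. Presence was tested by a two-sided exact stratified hypergeometric test, whose smallest p is 4.08e-04, and height by limma 3.58.1 (R 4.3.3, with trend, 4 group means) on log2 of the highest pileup scaled to 1000000 filtered fragments, without pseudocount. P-values were adjusted over every tested region by Benjamini-Hochberg, and a call needed an adjusted p under 0.05. Intervals are at 95%. Tests were checked on simulated data. Python 3.11.15 was used.

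The members, lists and motifs were chosen with earlier results of these data known. Regions given library by library are the start region of each gene, up to 3 per gene and direction with the highest −log10 q among presence calls, the 2 largest height changes per gene, and those called for genotype or with the lowest genotype p. Other single regions named in the text were chosen after their values were seen. Other pathway genes are named up to 3 per list by the number of called regions. Alternatives were a −log10 q of 5, equal numbers of peaks, regions in 1 or more or 4 or more libraries, peaks covering 0.5 of a region, a gene distance of 20 kb, an unstratified Fisher's exact test, a replicate block, leaving out each library, other scalings of height, a pseudocount of 1, a filter on height and limma without trend. Relative height combined with a block or with leaving out libraries was added after the data were seen.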

Additional observations from a re-analysis of the deposited data

Results flagged for a closer look

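In groups of 4 libraries, the highest or lowest value was compared with the gap to its nearest neighbour by Dixon's ratio. For continuous values, chance passes it in about 1 of 20 groups. Of 113 groups, 10 passed. The heights, scaled to 1000000 fragments, were 2.88 in IRF5+/+ library 4 at 72 h for Nfkb1 region 7, where the other 3 libraries had 4.36 to 4.57, and 0.766 in IRF5+/+ library 3 at 72 h for Tnfaip3 region 7, where the others had 0.608 to 0.622.

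The other 8 were counts of called regions in which 3 libraries tied. With such a tie the ratio is 1 whatever the size of the difference, so the rate for continuous values does not hold for counts. In IRF5-/- cells at 72 h, library 1 had 23 called regions of Nfkb1 where the others had 25, library 2 had 2 of Nfkb2 where the others had 1, and library 3 had 3 of Rela, 6 of Nfkbia and 15 of Tank where the others had 2, 5 and 16. In IRF5+/+ cells, library 2 at 0 h had 8 of Nfkbia where the others had 7, library 1 at 0 h had 9 of Nfkbiz where the others had 10, and library 2 at 72 h had 5 of Rel where the others had 4. These differences are of 1 or 2 regions.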

How the results depend on the processing

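Most alternatives changed the set of tested regions, so their counts are not parts of the 17 gained and 5 lost regions. A −log10 q of at least 5 gave 13 and 8 of 104, against 12385 and 4385 of all 69227. Equal numbers of peaks gave 8 and 14 of 72, against 6636 and 6349 of all 44887. The strongest 39807 peaks without IRF5-/- library 3 at 0 h gave 7 and 13 of 94, against 6913 and 6527 of all 59203. Peaks covering 0.5 of a region gave 13 and 6 of 113, against 8843 and 3288 of all 79094. Within 20 kb, 9 and 4 of 72 member regions were called. Leaving out each library gave 13 to 16 and 4 to 5, against 12268 to 14777 and 2633 to 3613 over all regions. The genotype count was 0 throughout, for the members and over all regions, so it cannot tell whether a member region differs. Heights showed no clear pairing by replicate number: the 21 same-number pairs had correlations of −0.167 to 0.228, and 3 of 15 libraries correlated best with their own number. These correlations cannot exclude a shared origin of same-number libraries, which the labels do not give. With the replicate block, 0 regions were gained and 0 lost (exact test, adjusted p 0.141 to 0.246 at the 16 regions named for presence). Of all 83743 regions 0 were called as well, the lowest adjusted p being 0.141, so this setting cannot tell whether a member call holds. Heights gave 9 higher and 23 lower with the block (7.99% and 63.3% of all regions). In relative height the block gave 20 and 16 (34.1% and 38.9%).

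In depth-scaled height 10 member regions were higher and 23 lower (8.89% and 65.4% of all regions). Relative height gave 20 and 16 (34.4% and 39.1%), and quantile normalization 19 and 16 (32.5% and 36.1%). Fold enrichment gave 14 and 13 (8.62% and 51.3%). Above the median height 3 and 19 of 24 were called (3.19% and 81.7%), and within 20 kb 7 and 14 of 27. Leaving out each library gave 8 to 12 higher and 23 to 27 lower (8.03% to 12.4% and 58.4% to 71.5% of all regions). In relative height it gave 20 to 21 and 15 to 18 (33.4% to 34.9% and 37.2% to 40.9%). The genotype count of 0 (0.156% of all regions) was 1 in relative height (1.06%) and 1 (Rel region 1, lower) with regions in 2 or more libraries of every group (3.65%). With a library left out it was 0 to 36 (0.00467% to 79.0% of all regions), or 0 to 1 in relative height (0.409% to 2.59%). The interaction count was 0 throughout.

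Signs turned at Tnfaip3 region 19 for genotype (0.34 in relative height, and 0.40, 0.37, 0.39 and 0.41 without IRF5+/+ library 1 or 3 at 72 h, IRF5-/- library 1 at 0 h or IRF5-/- library 1 at 72 h), at Nfkb2 region 1 (0.14, quantile normalization), and on fold enrichment at Nfkbia region 7 (0.22) and Tnfaip3 region 7 (0.030). The cause was not tested. Depth limits the calling of low peaks, and intervals cover the spread between these libraries only.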

Other observations

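The same start windows were searched on both strands for TGANTCA, the AP-1 motif, and for GAAA, any 2 bases, GAAA, an interferon response motif of the kind IRF proteins bind. The AP-1 letters occurred in 3 of the 12 windows, at Nfkb2, Tnfaip3 and Tank, against 6.75% of all windows. The interferon response letters occurred in 0 of 12, against 2.98% of all windows.

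Some of the member regions far from their genes lie in long stretches without another protein-coding gene, and others do not. For Tnfaip3 region 19, 89057 bp from Tnfaip3, the next nearest gene, Perp, is 247394 bp away. Tank region 2, 94115 bp from Tank, is 227252 bp from Psmd14, and Nfkbiz region 1 is 116278 bp from Nxpe3. At Nfkb1 region 34 the next gene is nearer, with Slc39a8 at 65836 bp against 58386 bp for Nfkb1. Tnfaip3 region 1 is 69178 bp from Tnfaip3 and 74287 bp from Perp, and Rel region 8 is 34985 bp from Rel and 53803 bp from Papolg.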
